A study of Homo sapiens and Mus musculus with 19 samples.

Results

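SOD2 and 8 further genes of cell protection and prostaglandin metabolism were examined in lung cancer cells with activated or repressed NF-kB. The set was given as a list of symbols and comprises SOD2, IER3, TNFAIP2, GADD45B, PTGS2, PTGS1, PTGES, PLA2G4A and HPGD. All 9 were among the 19775 genes of the human table, and 8 mouse counterparts were among the 18194 genes of the mouse table, where the annotation used here gave no probe set for Ptgs1. A gene was read by the brightest probe set that names it and no other gene. Genes not above the 40th percentile of the signals in at least 5 human or 2 mouse arrays were not tested. This kept all 9 human genes among 15212 and 7 of the 8 mouse genes among 12549, Hpgd being too dim.

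The 15 human arrays cover the lung carcinoma lines PC9, HCC827, H358, H23 and A549, each with 1 array for each of 3 retroviral vectors, and the 4 mouse arrays cover Lewis lung carcinoma cells (LLC) with 2 vectors and 2 arrays for each. In the IKKb vector the insert was the kinase IKKβ, made active by glutamate at serines 177 and 181. In the IkB_SR vector it was a super-repressor of NF-kB, IkBα with alanine at serines 32 and 36, used in the human lines only. MiG was the same retrovirus without an insert and served as the control. All cells, the MiG controls included, were transduced and sorted on green fluorescent protein before RNA isolation, so every array reads sorted pools that carry a virus. All LLC samples also bear the term kB OVA, which the labels do not explain. The labels give neither separate cultures nor passages. With 1 array per line and vector, p-values in the human fit measure the spread of vector differences from line to line, array noise included. In LLC they measure the spread between arrays, which may be technical.

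NF-kB is held in the cytoplasm by IkB proteins. IKKβ phosphorylates these inhibitors, they are degraded, and the freed dimers enter the nucleus and activate genes of inflammation and survival. Textbook targets include SOD2, the manganese superoxide dismutase of mitochondria, IER3, an early response gene that modulates apoptosis, TNFAIP2, a TNF-inducible gene linked to membrane protrusions, and GADD45B, which restrains JNK signalling. PTGS2, the inducible cyclooxygenase, is another. In the prostaglandin pathway the phospholipase encoded by PLA2G4A releases arachidonic acid from membranes. PTGS1 and PTGS2 convert it to prostaglandin H, the synthase encoded by PTGES makes prostaglandin E from that, and the dehydrogenase encoded by HPGD inactivates it. Prostaglandin E is known in lung carcinoma as a product that supports growth and dampens immune cells.

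Promoter windows are shown for the only gene of the set that passed the test (TNFAIP2) and for SOD2. Once line means were removed, SOD2 was the gene of the set with the highest correlation to TNFAIP2 over the 15 human arrays (0.85). Without the H358 IKKb array that gene was GADD45B, at 0.78 against 0.74 for SOD2. Windows are also shown for a pair of prostaglandin genes whose signals did not follow the vectors in the same way (PTGS2 and PTGES). The windows are RefSeq sequences on GRCh38.p14, from 250 bases before to 50 bases after an annotated gene start, printed 5′ to 3′ on the strand of the gene. They lie at chr14:103123211-103123510 on the plus strand, and at chr6:159693192-159693491 for SOD2, chr1:186680374-186680673 for PTGS2 and chr9:129752993-129753292 for PTGES on the minus strand. The SOD2 window is the one of its 4 with the most matches to the motif below. Capitals mark matches to GGGNNNNNCC on either strand, a loose form of the site that NF-kB dimers bind, and in PTGS2 also a match to TATAAA.
TNFAIP2: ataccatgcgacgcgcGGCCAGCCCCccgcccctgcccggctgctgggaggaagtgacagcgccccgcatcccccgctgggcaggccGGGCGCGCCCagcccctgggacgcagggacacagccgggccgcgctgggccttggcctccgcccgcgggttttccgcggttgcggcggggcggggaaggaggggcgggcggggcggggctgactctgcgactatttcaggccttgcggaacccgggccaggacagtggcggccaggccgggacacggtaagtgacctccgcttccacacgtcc
SOD2: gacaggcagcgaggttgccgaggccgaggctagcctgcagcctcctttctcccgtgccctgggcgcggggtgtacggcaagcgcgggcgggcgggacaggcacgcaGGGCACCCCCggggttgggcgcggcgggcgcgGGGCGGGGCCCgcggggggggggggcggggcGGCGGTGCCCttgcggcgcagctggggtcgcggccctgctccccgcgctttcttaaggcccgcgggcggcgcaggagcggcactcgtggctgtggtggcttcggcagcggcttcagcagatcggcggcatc
PTGS2: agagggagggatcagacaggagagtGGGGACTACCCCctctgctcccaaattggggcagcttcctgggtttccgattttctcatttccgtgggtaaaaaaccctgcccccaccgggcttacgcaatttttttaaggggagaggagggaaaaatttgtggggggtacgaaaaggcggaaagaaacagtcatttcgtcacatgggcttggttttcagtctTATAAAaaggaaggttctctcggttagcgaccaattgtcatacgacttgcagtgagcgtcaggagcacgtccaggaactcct
PTGES: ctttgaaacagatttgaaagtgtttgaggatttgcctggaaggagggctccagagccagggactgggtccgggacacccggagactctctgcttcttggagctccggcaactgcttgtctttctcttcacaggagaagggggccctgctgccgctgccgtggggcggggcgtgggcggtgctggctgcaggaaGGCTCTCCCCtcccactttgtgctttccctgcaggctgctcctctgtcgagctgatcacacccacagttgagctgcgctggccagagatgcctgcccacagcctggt

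Among the 13 windows available for 8 of the 9 genes (none for IER3), 11 windows of 7 genes held GGGNNNNNCC, against 58.7% of 35116 windows of the same length. PLA2G4A was the gene without it. The stricter kappaB consensus, a 10-letter motif with degenerate positions, was found in 0 of the 13 windows, against 5.91% of all windows. TATAAA was found in 3 windows, those of GADD45B, PTGS2 and 1 of PTGS1, against 11.5% of all windows, and GGGCGG, which can overlap GGGNNNNNCC, in 9, against 45.0%. These matches describe the letters of the windows, and sites further from the gene starts were not searched.

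MAS5 signals were used, which per array have a trimmed mean of 500 through the authors' scaling. The median signal was 51.3 to 76.5 on human arrays and 55.0 to 64.4 on LLC arrays. Every human array was most alike to the other arrays of its own line. The H358 IKKb array stood apart from the IkB_SR and MiG arrays of its line, with a signal of 4376 for the Dap spike-in, against 1103 and 1128, and an actin 3' to 5' ratio of 1.74, against 1.38 and 1.41. Dap also set the arrays of PC9 apart, at 4354 with IKKb and 4047 with IkB_SR, against 2376 with MiG, where the actin ratios were 1.295, 1.25 and 1.19 in this order. On the A549 arrays Dap read 161 with IKKb, 154 with IkB_SR and 159 with MiG, against 1103 or more on the other human arrays. Differences that moved by more than 1.5 times without the H358 IKKb array are given without it too, and leaving out the PC9 MiG array was an alternative chosen after seeing the data. IKBKB, the gene of the transduced kinase, had 0.794 to 0.914 of the MiG signal with IKKb in 4 human lines and 1.03 of it in HCC827 (log2 -0.19 ± 0.12, adjusted p = 0.911, limma), and Ikbkb in LLC had 1.26 and 1.14 of it. Whether these probe sets lie within the sequence that the vector carries is not given in the sources used here, so the IKKb label is not checked by them. The array labelled H23 IkB_SR had 0.782 of the MiG signal for NFKBIA, the gene of the transduced inhibitor, while this ratio was 1.60 to 7.08 in the other 4 lines. Epithelial markers were above the 40th percentile in 4 or 5 of 5 genes on every human array, and genes of the other marker lists were in part above it as well. Of the leukocyte markers PTPRC lay below it on 14 of 15 arrays, CD3E on 8, CD14 on 5 and ITGAM on 4. Of the fibroblast markers PDGFRB lay below it on all 15, COL3A1 on 11, DCN on 1 and COL1A1 on 0, with signals of 436 to 1470.2. Of the endothelial markers VWF lay below it on all 15, CDH5 on 8 and PECAM1 on 0, with signals of 84.5 to 470.3. In LLC, Krt8, Krt18 and the leukocyte marker Cd14 (503 to 566) lay above it on all 4 arrays. So did the fibroblast markers Col3a1 (9899 to 20078) and Pdgfrb (94.8 to 160). Cdh1, Ptprc, Itgam, Col1a1, Pecam1 and Vwf lay below it on all 4. Epcam lay below it on 1 array, Krt19 and Dcn on 2, and Cd3e and Cdh5 on 3.

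Across the human lines TNFAIP2 was the only gene of the set that passed the test, and only in the comparison of IKKb with IkB_SR. Between IKKb and MiG 0 of the 9 genes had an adjusted p below 0.05 (limma with Benjamini-Hochberg adjustment over all genes), against 0% of the 15212 genes tested. At an unadjusted p below 0.05, 2 of the 9 differed, SOD2 and TNFAIP2, against 5.52% of all genes. These 2 were also the genes higher in all 5 lines, against 3.29% of all genes, and 0 of 9 were lower in all 5, against 4.83%. Between IkB_SR and MiG the adjusted count was also 0 of 9, against 0% of all genes. There 1 of 9, PTGES, had an unadjusted p below 0.05, against 4.44% of all genes. SOD2 and PTGES were higher in all 5 lines and 0 of 9 lower in all 5, against 4.04% and 3.71% of all genes. Between IKKb and IkB_SR 1 of 9 rose and 0 fell, against 0.611% of all genes that rose and 0.322% that fell, and 4 of 9 had an unadjusted p below 0.05, against 14.2%. By direction, TNFAIP2 was higher and PTGES lower in all 5 lines, against 4.51% and 5.73% of all genes. The median difference over the 9 genes was 0.07, 0.01 and 0.09 on the log2 scale in these 3 comparisons, in this order, beside -0.01, 0.00 and -0.01 over all genes. These comparisons share arrays in pairs and are not independent of each other. In bulk RNA, a difference in the share of cells and a difference in RNA per cell cannot be told apart.

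SOD2 signals with IKKb were 420.2 in PC9, 1266 in HCC827, 737 in H358, 586 in H23 and 340.0 in A549. With IkB_SR they were 296 in PC9, 294 in HCC827, 166 in H358, 633 in H23 and 287 in A549. With MiG they were 243 in PC9, 255 in HCC827, 161 in H358, 524 in H23 and 286 in A549. IKKb arrays lay above the MiG array of the same line in all 5 lines, by 4.96-fold in HCC827, 4.57-fold in H358 and 1.73-fold in PC9, and by 1.19-fold in A549 and 1.12-fold in H23. Between lines the vectors overlap, the MiG signal of H23 lying above the IKKb signals of A549 and PC9. The mean log2 difference between IKKb and MiG was 1.09 ± 0.30 (SE, n = 5 lines, 95% interval 0.46 to 1.73, 2.14-fold), with an adjusted p of 0.878 and an unadjusted p of 0.00240 in limma. Between IKKb and IkB_SR the difference was 0.94 ± 0.30 (adjusted p = 0.169, limma), with H23 alone in the other direction at -0.11. Without the H358 IKKb array these differences were 0.83 and 0.68, and without the H23 arrays 1.33 and 1.2. Without the PC9 MiG array the first was 1.12.

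With IkB_SR the SOD2 signals lay near those with MiG in these arrays. The IkB_SR signal was above the MiG signal in 5 of 5 lines, by log2 differences of 0.27 in PC9, 0.19 in HCC827, 0.04 in H358, 0.27 in H23 and 0.01 in A549, and the mean was 0.15 ± 0.30 (95% interval -0.48 to 0.79, adjusted p = 0.995, limma). The SE of 0.30 was pooled over the 3 vectors in 1 fit. It includes the spread of the IKKb arrays and was the same in each SOD2 comparison. Other probe sets, described next, had no common direction in the comparison of IkB_SR with MiG. Of the NF-kB reference targets described below, 16 of 16 had a mean below 0 in it.

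**Figure D1:**
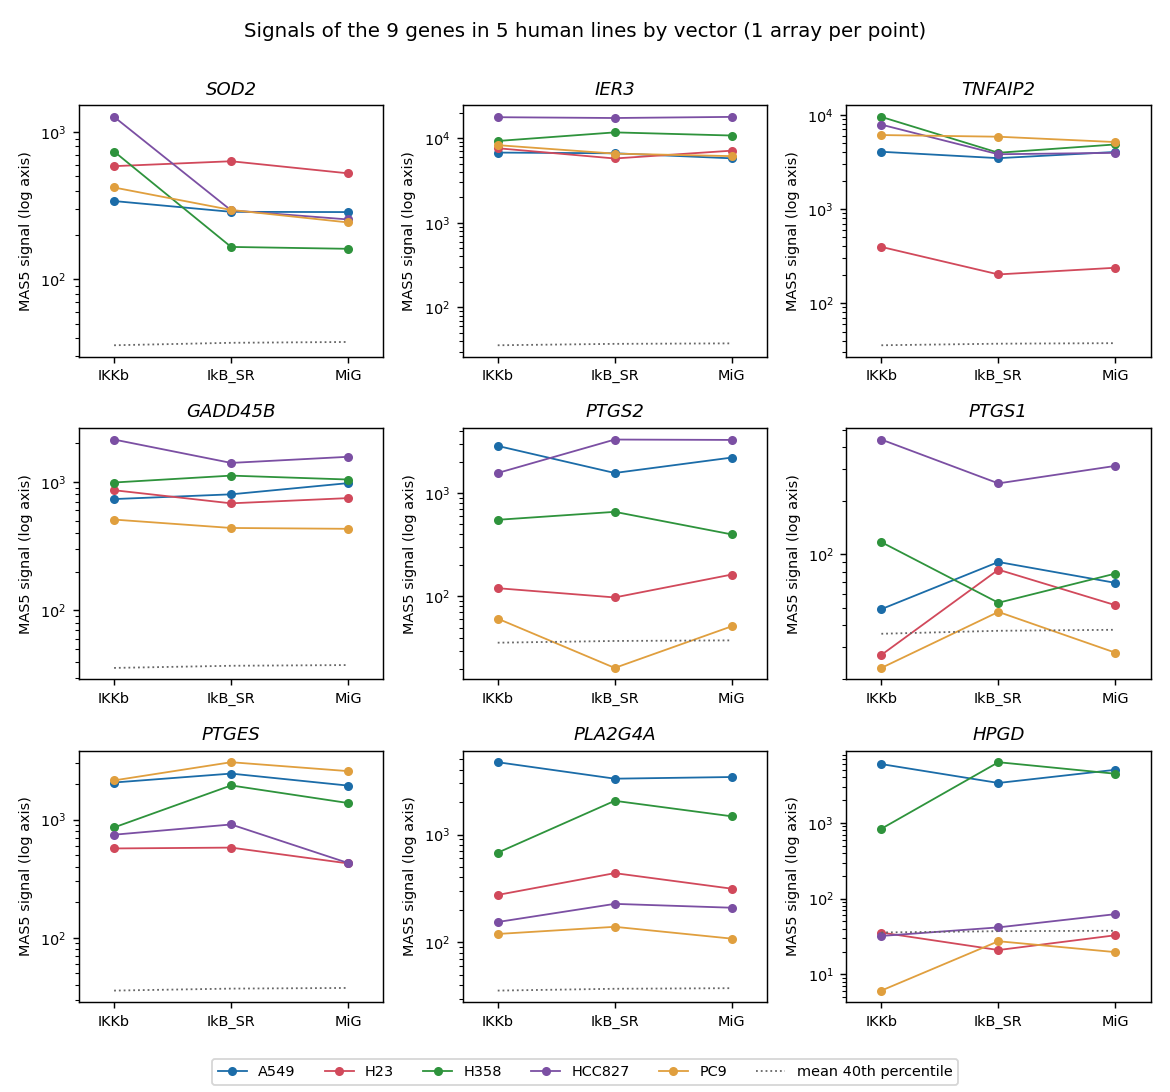
MAS5 signal on a log axis for each of the 9 genes under IKKb, IkB_SR and MiG; each point is 1 array, lines join the 3 arrays of a cell line, and the dotted line is the mean 40th percentile of the arrays. SOD2 with IKKb stands at 1266 in HCC827 and 737 in H358, above 255 and 161 with MiG, while IER3 in HCC827 stays between 17313 and 17846 under all 3 vectors.

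SOD2 rested on 1 probe set, the only one on the array that names SOD2 alone. Other probe sets name both SOD2 and SOD2-OT1, an overlapping transcript, so that the 2 transcripts cannot be told apart there. The 3 of them above background were tested one by one, which was decided after seeing the data. The brightest of these with IKKb had IKKb signals of 353 in PC9, 5614 in HCC827, 1894 in H358, 932 in H23 and 814 in A549. Its IkB_SR signals were 299.7 in PC9, 657 in HCC827, 229.8 in H358, 859 in H23 and 449 in A549. Its MiG signals were 253 in PC9, 541 in HCC827, 369 in H358, 797 in H23 and 335 in A549. On this probe set IKKb was highest within each of the 5 lines, whereas on the one that names SOD2 alone IkB_SR was highest in H23. The gap to MiG was widest in HCC827. The differences between IKKb and MiG were 1.51 ± 0.39 for this probe set and 1.19 ± 0.32 and 1.27 ± 0.42 for the other two, each with an adjusted p of 0.874 in a limma fit over 36503 probe sets. Between IKKb and IkB_SR they were 1.44 ± 0.39, 1.26 ± 0.32 and 1.2 ± 0.42, with adjusted p of 0.144, 0.115 and 0.271 (limma), against 0.422% of all probe sets that passed. Between IkB_SR and MiG they were 0.07 ± 0.39, -0.08 ± 0.32 and 0.07 ± 0.42 (adjusted p = 0.997 for each, limma), higher with IkB_SR in 4, 2 and 2 of the 5 lines. The last of the 3 was higher with IKKb than with MiG in 4 of 5 lines, PC9 reading 275 with IKKb and 283 with MiG. The probe sets disagree in A549, where the last of the 3 read 1950.2 with IKKb and 2012 with IkB_SR, against 893 with MiG.

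**Figure D2:**
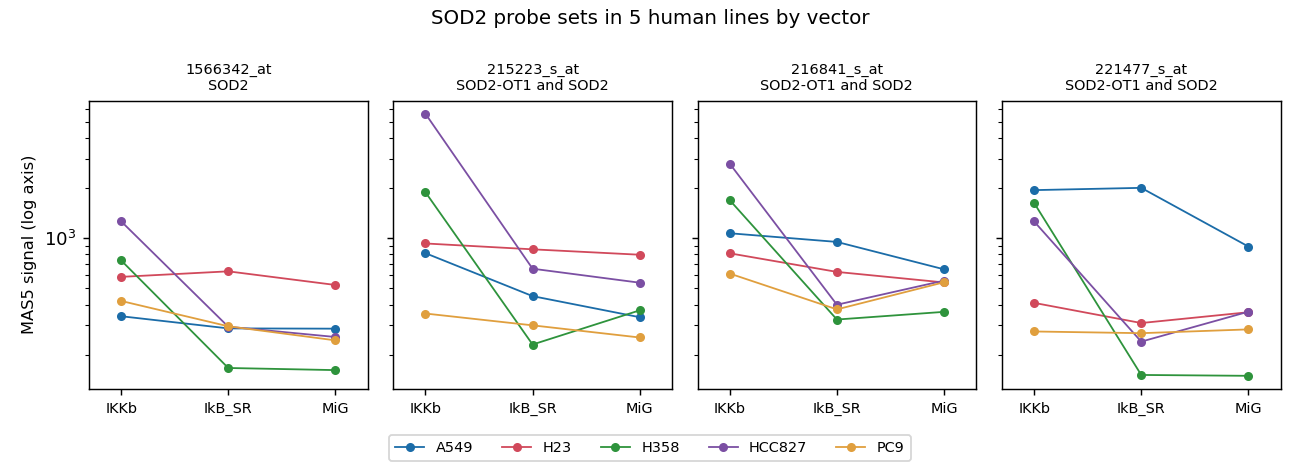
MAS5 signal on a shared log axis for the probe set that names SOD2 alone (left) and the 3 that name SOD2-OT1 and SOD2, under IKKb, IkB_SR and MiG; lines join the arrays of a cell line. H358 and HCC827 have their highest signal with IKKb in all 4 panels, up to 5614 in HCC827 in the second panel.

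TNFAIP2 was higher with IKKb than with IkB_SR in 5 of 5 lines, and it was the gene that passed the test. Its signals with IKKb were 6095 in PC9, 7859 in HCC827, 9500.3 in H358, 396 in H23 and 4051 in A549. With IkB_SR they were 5852 in PC9, 3812 in HCC827, 3953 in H358, 202 in H23 and 3464 in A549. With MiG they were 5135 in PC9, 3946 in HCC827, 4845 in H358, 238 in H23 and 4032 in A549. H23 lay far below the other lines under every vector, and H358 and HCC827 had the highest IKKb signals. TNFAIP2 rose 1.63-fold between IKKb and IkB_SR (log2 0.70 ± 0.15, n = 5 lines, 95% interval 0.38 to 1.02, adjusted p = 0.0429, limma with Benjamini-Hochberg adjustment). By line the log2 difference was 0.06 in PC9, 1.04 in HCC827, 1.26 in H358, 0.92 in H23 and 0.22 in A549. The call was lost in 14 of 18 alternative settings, in all of which the direction held. Without the H358 IKKb array the difference was 0.58 (adjusted p = 0.0889), and without the H23 arrays it was 0.65 (adjusted p = 0.174). It was 0.56 without H358 (0.147), 0.62 without HCC827 (0.201), 0.86 without PC9 (0.0532) and 0.82 without A549 (0.0354). Without the PC9 MiG array it stayed at 0.70, with an adjusted p of 0.0704.

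Against MiG, TNFAIP2 with IKKb was higher in 5 of 5 lines (0.58 ± 0.15, 1.5-fold, adjusted p = 0.878, unadjusted p = 0.00168, limma), with A549 nearly level at 0.01 and HCC827 the highest at 0.99. With IkB_SR it was lower than with MiG in 4 of 5 lines, the mean difference being -0.12 ± 0.15 (adjusted p = 0.995). The second TNFAIP2 probe set gave 0.76 ± 0.20 between IKKb and IkB_SR, with an adjusted p of 0.129 over all probe sets, where the first gave 0.0594 (limma).

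IER3 and GADD45B did not pass in any human comparison, and their spread between lines exceeded that between vectors. IER3 signals ran from 6759 to 17695 with IKKb, from 5756 to 17313 with IkB_SR and from 5779.8 to 17846 with MiG. HCC827 had the highest IER3 signal under all 3 vectors. The IER3 difference was 0.10 ± 0.10 between IKKb and MiG, 0.01 ± 0.10 between IkB_SR and MiG and 0.09 ± 0.10 between IKKb and IkB_SR (adjusted p = 0.929, 0.997 and 0.744, limma). The 95% interval of the last was -0.13 to 0.31, so that a mean difference above 0.31 lay outside it. Without the H358 IKKb array the first was 0.20 and the last 0.18, and without the PC9 MiG array the first was 0.054 and the second -0.037. GADD45B signals ran from 508 to 2129 with IKKb, from 438 to 1402 with IkB_SR and from 431 to 1564 with MiG, highest in HCC827 and lowest in PC9 under each vector. Its differences were 0.08 ± 0.12, -0.09 ± 0.12 and 0.17 ± 0.12 in the same 3 comparisons (adjusted p = 0.959, 0.995 and 0.557, limma). Without the H358 IKKb array the first was 0.14, and without the PC9 MiG array 0.045. The GADD45B difference between IKKb and IkB_SR was largest in HCC827, at 0.60, and below 0 in A549 and H358. In the fit over all probe sets, a dimmer GADD45B probe set had the other sign in each comparison. It gave -0.27 ± 0.21, 0.18 ± 0.21 and -0.45 ± 0.21 in the same order. The other tested ones kept the signs, at 0.13, -0.03 and 0.16 for 1 of them and 0.10, -0.06 and 0.16 for another.

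The first step of prostaglandin synthesis is read by PLA2G4A. Its signals with IKKb were 119.7 in PC9, 154 in HCC827, 679 in H358, 275 in H23 and 4680.4 in A549. With IkB_SR they were 139 in PC9, 228 in HCC827, 2054 in H358, 438 in H23 and 3293 in A549. With MiG they were 108 in PC9, 209.5 in HCC827, 1475 in H358, 315 in H23 and 3412 in A549. A549 stood highest and PC9 lowest under every vector. IKKb cells had lower signals than IkB_SR cells in 4 of 5 lines, the mean difference being -0.48 ± 0.21 (unadjusted p = 0.0355, adjusted p = 0.317, limma). A549 went the other way at 0.51, and H358 was farthest below 0 at -1.58. Leaving out the H358 IKKb array gave a mean of -0.24, and that between IKKb and MiG was 0.02, where it was -0.22 ± 0.21 with it. The mean between IkB_SR and MiG was 0.26 ± 0.21 (adjusted p = 0.995), above 0 in 4 of 5 lines.

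The cyclooxygenases differed in brightness on the arrays and in how they varied. PTGS2 signals with IKKb were 61.0 in PC9, 1559 in HCC827, 550.2 in H358, 120.1 in H23 and 2847 in A549. With IkB_SR they were 20.4 in PC9, 3281 in HCC827, 657 in H358, 97.8 in H23 and 1559 in A549. With MiG they were 51.5 in PC9, 3254 in HCC827, 398 in H358, 163 in H23 and 2198 in A549. The lines spanned a wide range, HCC827 and A549 being bright and PC9 near the 40th percentile, with its IkB_SR signal below it. The vectors gave no common direction. In A549 PTGS2 was 0.86 higher on the log2 scale with IKKb than with IkB_SR, whereas in HCC827 the difference was -1.07. The means were -0.09 ± 0.26 for IKKb and -0.26 ± 0.26 for IkB_SR against MiG, and 0.18 ± 0.26 for IKKb against IkB_SR (adjusted p = 0.974, 0.995 and 0.816, limma). Without the PC9 MiG array the first was -0.043. With all arrays the 95% interval of the first was -0.64 to 0.47. That of SOD2 was 0.46 to 1.73, so the 2 intervals overlap at their ends, and the 2 genes were not tested against each other.

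PTGS1, the constitutive cyclooxygenase, was dim. Signals ran from 23 to 442 with IKKb, from 47.4 to 250.4 with IkB_SR and from 28.0 to 314 with MiG, and 3 of the 15 arrays lay below the 40th percentile, H23 and PC9 with IKKb and PC9 with MiG. HCC827 was the brightest line under each vector. The differences were -0.05 ± 0.28, 0.13 ± 0.28 and -0.17 ± 0.28 for IKKb and then IkB_SR against MiG, and for IKKb against IkB_SR (adjusted p = 0.986, 0.995 and 0.832, limma). Without the H358 IKKb array the first was -0.25 and the last -0.38, and without the PC9 MiG array the first was -0.081. When all PTGS1 probe sets were averaged, all 3 changed sign.

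PTGES, the prostaglandin E synthase, had its highest signal with IkB_SR in each of the 5 lines on its brightest probe set. With IKKb the signals were 2146 in PC9, 745 in HCC827, 859 in H358, 570.0 in H23 and 2060.1 in A549. With IkB_SR they were 3059 in PC9, 909 in HCC827, 1946 in H358, 579 in H23 and 2451 in A549. With MiG they were 2571 in PC9, 429 in HCC827, 1381 in H358, 426 in H23 and 1939 in A549. IkB_SR lay above MiG by log2 differences of 0.25 in PC9, 1.06 in HCC827, 0.49 in H358, 0.43 in H23 and 0.34 in A549. The mean was 0.51 ± 0.17 (1.43-fold, 95% interval 0.16 to 0.87), with an unadjusted p of 0.00787 and an adjusted p of 0.995 (limma). IKKb lay below IkB_SR in 5 of 5 lines, the mean difference being -0.45 ± 0.17 (unadjusted p = 0.0174, adjusted p = 0.244, limma). The smallest of these gaps was -0.02 in H23 and the widest -1.17 in H358, and leaving out the H358 IKKb array gave a mean of -0.26. IKKb and MiG showed no common direction (0.07 ± 0.17, adjusted p = 0.970), the mean being 0.25 without the H358 IKKb array and 0.14 without the PC9 MiG array. A second probe set gave 0.53 ± 0.19 between IkB_SR and MiG and -0.36 ± 0.19 between IKKb and IkB_SR, each in the same direction in 4 of 5 lines. On it H23 went the other way, reading 230.4 with IKKb, 186 with IkB_SR and 213 with MiG.

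HPGD, the inactivating enzyme, was bright in A549 and H358 only. In A549 its signal was 5982 with IKKb, 3371 with IkB_SR and 5032 with MiG. In H358 it was 838 with IKKb, 6336 with IkB_SR and 4462 with MiG. In HCC827 the signals were 32.1, 41.7 and 62.4 in this order of vectors, and all 6 arrays of H23 and PC9 lay below the 40th percentile. H358 cells with IKKb had 0.188 of the MiG signal, while A549 cells with IKKb lay slightly above MiG. The mean log2 difference was -0.69 ± 0.38 between IKKb and MiG (adjusted p = 0.887), -0.13 ± 0.38 between IkB_SR and MiG (0.997) and -0.56 ± 0.38 between IKKb and IkB_SR (0.544), all by limma with Benjamini-Hochberg adjustment. Without the H358 IKKb array the first was -0.19 and the last -0.06, so the mean rests on the array whose spike-in and actin values stood apart, and their part in the result was not tested.

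**Figure D3:**
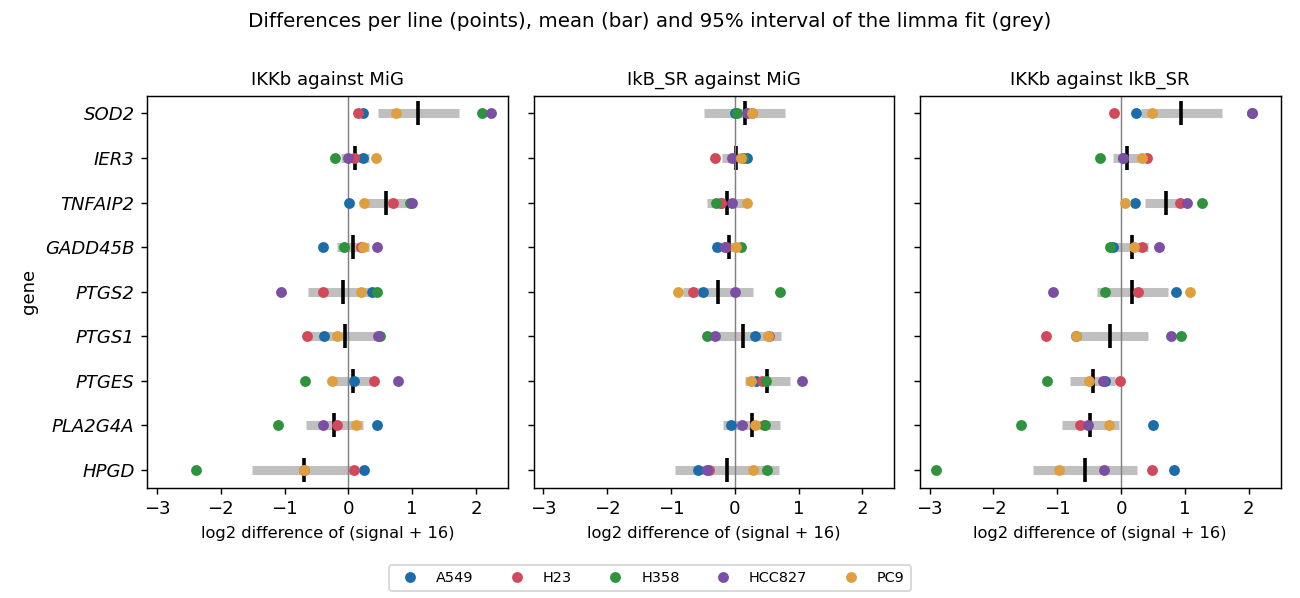
Log2 differences of signal plus 16 for the 9 genes in the 3 comparisons of vectors, on a shared axis; coloured points are the 5 lines, the black bar is the mean and the grey band its 95% interval from limma. For SOD2 the H358 and HCC827 points lie at 2.09 and 2.24 between IKKb and MiG, and for PTGES all 5 points lie above 0 between IkB_SR and MiG.

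For 7 of the 9 genes at least 1 line lay apart from its neighbour in level. Averaged over the 3 vectors, TNFAIP2 stood at 6099.6 ± 2979 in H358, 5694 ± 499 in PC9, 5206 ± 2299 in HCC827, 3849 ± 334 in A549 and 278 ± 103 in H23 (SD over 3 arrays). The ranges of the first 4 lines overlapped from neighbour to neighbour, and H23 lay apart. PLA2G4A was ordered A549, H358, H23, HCC827 and PC9, at 3795 ± 769, 1402 ± 690.4, 343 ± 85.2, 197 ± 38.1 and 122 ± 15.7, with no overlap between neighbours. PTGS2 was ordered HCC827, A549, H358, H23 and PC9, at 2698 ± 987, 2202 ± 644, 535 ± 130.4, 127 ± 33.0 and 44.3 ± 21.2, and HCC827 and A549 alone overlapped. SOD2 ranges overlapped between all neighbours, from 605 ± 573 in HCC827 to 305 ± 30.7 in A549, and so did those of PTGES, from 2592 ± 457 in PC9 to 525 ± 86.0 in H23. IER3 and GADD45B were both highest in HCC827 and next in H358, each apart from its neighbour. HPGD in A549 and H358, at 4795 ± 1322 and 3879 ± 2795, overlapped with each other and lay apart from HCC827. The A549 arrays also differed from those of the other lines in the Dap spike-in, whose part in these levels was not tested.

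The NF-kB reference targets, a list of 18 known targets of which 16 were tested, give the scale for these values. Of these 16 genes 12 rose and 0 fell between IKKb and IkB_SR, with a median of 2.15 beside -0.01 over all genes. NFKB1, the precursor of the shorter canonical subunit, rose 1.80-fold (0.85 ± 0.10, adjusted p = 0.00143), and TNIP1, an inhibitor that binds TNFAIP3, rose 2.49-fold (1.31 ± 0.15, adjusted p = 0.000790, limma). Both differences lay below the median of the list. RELB and IL32 came before them in the order of p. Against MiG none of the 16 passed with either vector, at medians of 1.17 with IKKb and -0.98 with IkB_SR. By line, the median of the 16 between IKKb and MiG was 2.42 in HCC827, 1.70 in H358, 0.62 in PC9, 0.53 in H23 and 0.44 in A549. H358 and HCC827, the lines with the highest medians, were also those with the widest SOD2 and TNFAIP2 differences. In the array labelled H23 IkB_SR the median against MiG was -0.91, with 3 of 16 genes above 0. The list was chosen with results of these data known and is no independent evidence of direction.

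Relatives of the examined genes were counted as lists. Of 14 tested genes of prostaglandin release, synthesis and export, 0 passed in any human comparison, with a median of -0.12 between IKKb and IkB_SR. The smallest p among them there, a gene singled out after its values were seen, was that of PTGDS, a prostaglandin D synthase, lower in 5 of 5 lines (-1.11 ± 0.29, adjusted p = 0.104, limma) with 2 of its 5 IKKb arrays below the 40th percentile. Of 7 prostaglandin receptors and 5 lipoxygenase and leukotriene genes, 0 passed in any human comparison. Among 19 further antioxidant enzymes 0 passed, at a median of 0.01 between IKKb and IkB_SR, and catalase (CAT), also singled out after its values were seen, had the smallest p, lower in 5 of 5 lines (-0.39 ± 0.10, adjusted p = 0.0814, limma). Of 7 relatives of IER3 and GADD45B, 1 fell between IKKb and IkB_SR. It was IER5L, an immediate early response gene, at -0.59 ± 0.12 (adjusted p = 0.0369, lower in 5 of 5 lines). Of 4 other genes named for induction by TNF, 1 rose, TNFAIP3, 10.47-fold (3.39 ± 0.41, adjusted p = 0.00143, limma). Of the leukocyte markers ITGAM, an integrin chain, rose (1.72 ± 0.34, adjusted p = 0.0327), with 3 of 5 IkB_SR arrays below the 40th percentile while PTPRC lay below it on 14, CD3E on 8 and CD14 on 5 of all 15 arrays. The summed leukocyte signal ran from 111 to 793 with IKKb, from 107 to 408 with IkB_SR and from 111 to 584 with MiG, and its part in the results above was not tested. The remaining marker lists had 0 calls in every human comparison.

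Once the mean of each line was removed, SOD2 and TNFAIP2 varied alike over the 15 human arrays, with a Pearson correlation of 0.85 (0.74 over 14 arrays, without the H358 IKKb array). These values are a description over arrays that share lines and vectors. PLA2G4A and HPGD had 0.80 with each other, but 0.33 without that array. With SOD2 they had -0.68 for PLA2G4A and -0.75 for HPGD, and -0.31 and -0.46 without it, so these values draw on that array. The PLA2G4A value for TNFAIP2 was -0.80, and -0.63 without it. GADD45B and TNFAIP2 had 0.49, and 0.78 without that array, where SOD2 and TNFAIP2 had 0.74. PTGS2 was not close to SOD2 (-0.32, and -0.48 without that array) or TNFAIP2 (-0.29, and -0.42 without it). The 4 genes most like SOD2 by this measure were MMP9, a matrix metalloprotease (0.96), SRGN, a granule proteoglycan (0.95), SHMT2, a mitochondrial serine hydroxymethyltransferase (0.93), and LTB, lymphotoxin beta (0.93). Without that array these were 0.93, 0.91, 0.93 and 0.89. LTB rose between IKKb and IkB_SR (3.32 ± 0.67, adjusted p = 0.0351, limma), while MMP9 had 2.43 ± 0.66 (0.109). The 4 genes most like PTGS2 were CMTM5, ITIH2, FBXL7 and LINC01616, at 0.88 to 0.89, and 0 of them passed in any comparison. They were dim. With MiG, LINC01616 lay below the 40th percentile on 5 of 5 arrays, ITIH2 on 3, and CMTM5 and FBXL7 on 1 each. Both sets of 4 were picked as the highest of 15212 genes, so high values come in part from the choice and show no shared regulation.

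In LLC, IKKb cells had higher signals than MiG cells for the counterparts of SOD2, TNFAIP2 and PTGES, with no overlap between the 2 arrays of each vector, and 0 of 7 genes passed the test, against 0% of the 12549 genes tested (limma with Benjamini-Hochberg adjustment). At an unadjusted p below 0.05, 1 of 7 differed, Ptges, against 1.90% of all genes. Sod2 signals were 5594 and 5459 with IKKb and 3725 and 4473 with MiG. Tnfaip2 signals were 4756 and 4681 with IKKb and 4505 and 3865 with MiG. Ptges signals were 3528 and 2555 with IKKb and 1609.8 and 1673 with MiG. Within both array numbers 4 of 7 genes were higher with IKKb and 2 lower, against 27.8% and 27% of all genes. A gap without overlap, higher with IKKb, was found in 10.9% of all genes. The log2 differences were 0.44 ± 0.19 for Sod2 (SE, n = 2 arrays per vector, 1.35-fold), 0.18 ± 0.19 for Tnfaip2 and 0.86 ± 0.21 for Ptges (1.82-fold, unadjusted p = 0.00508), and the adjusted p was 0.9997 for each (limma). In a fit over all probe sets, the other tested ones of Sod2 and Ptges were also higher with IKKb within both array numbers. Of the other Tnfaip2 probe sets 1 gave 0.21 ± 0.37 and another -0.16 ± 0.37.

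Ptges in LLC was higher with IKKb than with MiG, while in the human lines the mean of PTGES between these vectors was 0.07 ± 0.17; the difference between species was not tested. Pla2g4a was the gene lower with IKKb without overlap, at 3075 and 3368 with IKKb and 3577 and 3972 with MiG, as were 11.2% of all genes (-0.23 ± 0.18). Ier3 had 5609 and 3041 with IKKb and 3296 and 2625 with MiG, where the ranges overlapped (0.49 ± 0.31). The Ier3 difference was 0.048 without the IKKb array numbered 1 and 0.93 without the IKKb array numbered 2, and that of Tnfaip2 was 0.29 without the MiG array numbered 1 and 0.067 without the MiG array numbered 2. Ptgs2 had 2030.0 and 2919 with IKKb and 2232 and 3649 with MiG, lower with IKKb within each array number but overlapping (-0.23 ± 0.29). Gadd45b had 161 and 244 with IKKb and 132 and 296 with MiG, with the largest standard error of the 7 genes (-0.01 ± 0.41). Of its other probe sets 1 gave 0.64 ± 0.45, higher with IKKb within both array numbers, and another 0.34 ± 0.41. Hpgd, at 11.8 and 24.1 with IKKb and 34.3 and 24.2 with MiG, was below the 40th percentile on 3 of 4 arrays. The median over the 7 genes was 0.18, beside 0.00 over all genes. For scale, the 11 tested NF-kB reference targets had a median of 1.85, 0 of them passing, and Nfkbia stood at 1.1 ± 0.23.

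**Figure D4:**
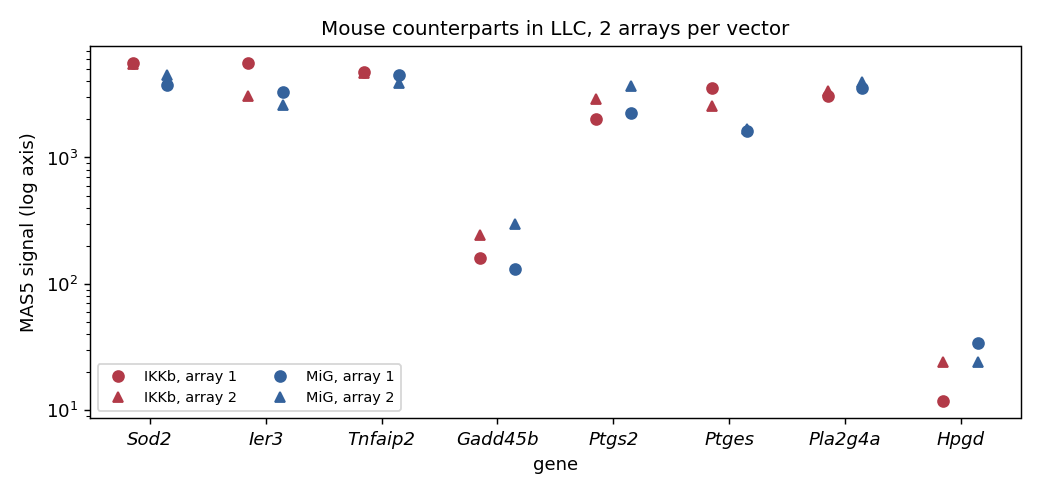
MAS5 signal on a log axis for the 8 mouse counterparts in LLC, with IKKb arrays in red to the left and MiG arrays in blue to the right of each gene; circles are arrays numbered 1 and triangles arrays numbered 2. Ptges reads 3528 and 2555 with IKKb, above 1609.8 and 1673 with MiG, and Hpgd is highest at 34.3.

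Values that differed between the LLC arrays beside the vector were as follows. The Dap spike-in read 1567 with IKKb and 1679 with MiG on the arrays numbered 1, and 19.4 with IKKb and 28.7 with MiG on those numbered 2. The summed epithelial markers stood at 9434 and 9885 with IKKb and at 14482 and 12088 with MiG, and the 4 of them tested had a median difference of -0.79. The summed fibroblast markers, nearly all Col3a1, stood at 11420 and 10112 with IKKb and at 20263 and 10753 with MiG, and Col1a1 lay below the 40th percentile on all 4 arrays. Their part in the differences of Sod2, Tnfaip2 and Ptges was not tested.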

How the data were processed

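RNA of 15 human and 4 mouse samples was read on single-colour arrays. The authors deposited 1 intensity for each probe set, not log-transformed, made with GCOS 1.4 and MAS5, per the submitters' processing notes. Low MAS5 values are noisy, and the common scaling hides differences in total RNA. GEO's platform annotation assigned 1 gene to 41097 of 54675 human and 34958 of 45101 mouse probe sets.

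Tests used log2 of signal plus 16, so differences of dim genes are understated. All 15 human arrays entered 1 fit, blocked by cell line, so a gene has the same SE in its 3 comparisons. The LLC fit compared 2 arrays with 2. Tests were those of limma 3.58.1 in R 4.3.3 (lmFit, and eBayes with a trend, two-sided), with Benjamini-Hochberg adjustment over all genes and a threshold of 0.05. The script was tested on simulated data. Python 3.11.15 with matplotlib 3.10.9 drew the figures. The number of arrays limits the precision.

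The replicate numbers of the human arrays are those of the 5 lines, so same-numbered arrays come from the same line and the line is the block. For LLC the labels leave the meaning of the numbers unstated.

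All 9 genes were named whatever their values, of the lists the genes past the threshold (at most 4 per list), and the 4 genes most correlated with SOD2 and with PTGS2. Further lists held NF-kB reference targets, prostaglandin genes and receptors, lipoxygenase genes, antioxidant enzymes, relatives of IER3 and GADD45B, genes named for induction by TNF, and markers of epithelium, leukocytes, fibroblasts and endothelium. The genes and lists were chosen with earlier results of these data known. Alternatives changed the pseudocount, normalisation, filter, probe set rule, prior, block and arrays. Testing each probe set on its own and leaving out the PC9 MiG array were chosen after seeing the data.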

Additional observations from a re-analysis of the deposited data

Results flagged for a closer look

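TNFAIP2 stood far below the other 4 lines in H23 under each vector. On the log2 scale its H23 signal was 8.69 with IKKb, where the other lines ran from 11.99 to 13.22. It was 7.77 with IkB_SR, against 11.76 to 12.52 in the other lines, and 7.99 with MiG, against 11.95 to 12.33. These are 3 of 54 groups of 5 values examined for a sample far from the others, of which chance alone would pick out about 1 in 20. The same cell line is concerned each time.

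Some probe sets that do not stand for a gene in the tests also read higher with IKKb than with MiG in all 5 human lines. The second TNFAIP2 probe set had a log2 difference of 0.43 ± 0.20. Of those that name SOD2-OT1 and SOD2 together, the brightest with IKKb had 1.51 ± 0.39 and another had 1.19 ± 0.32. The third, at 1.27 ± 0.42, was higher in 4 of 5 lines, PC9 reading 275 with IKKb and 283 with MiG. Their adjusted p over all probe sets was 0.874 (limma).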

How the results depend on the processing

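The count of 1 passing gene between IKKb and IkB_SR, TNFAIP2, became 0 with a pseudocount of 1, quantile normalisation, no filter, the mean of all probe sets, a robust prior, eBayes without a trend, no replicate block, or only the arrays of the compared vectors. It ranged from 0 to 1 with a line, the H358 IKKb array or the PC9 MiG array left out, and was 1 without A549 alone. The TNFAIP2 adjusted p ranged from 0.028 to 0.99996 over its 18 alternatives, and its difference from 0.56 to 0.86. In LLC the count was 0, and 1 with the replicate number as a block (Ptges, 0.86, adjusted p = 1.94e-05, limma). That fit rests on 2 arrays per vector. The share of all genes that passed in it is not given here, so the call cannot be read as particular to Ptges. Same-numbered LLC arrays deviated together (correlation 0.53 over 12549 genes), and the Dap signals above were also alike within a number, but no label says that the numbers pair them. The other counts stayed at 0.

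Of 581 differences of single genes under alternatives, 26 changed sign, all of genes that had not passed. Between IKKb and MiG PTGS1 was 0.022 with a pseudocount of 64, 0.014 with median centring and 0.060 with the mean of probe sets. With that mean, IkB_SR against MiG gave 0.00049 for GADD45B and -0.017 for PTGS1, and IKKb against IkB_SR 0.077 for PTGS1. In LLC Gadd45b was 0.00017 with a pseudocount of 1 and 0.33 with the mean of probe sets. With 1 line or array left out, differences between IKKb and MiG ran from -0.25 to 0.10 for PTGS1, -0.11 to 0.25 for PTGES, -0.012 to 0.20 for GADD45B, -0.22 to 0.16 for PTGS2 and -0.39 to 0.025 for PLA2G4A. IkB_SR against MiG ran from -0.037 to 0.094 for IER3, where it was -0.032 without A549. IKKb against IkB_SR ran from -0.45 to 0.077 for PTGS1, -0.91 to 0.018 for HPGD and -0.049 to 0.49 for PTGS2. In LLC they ran from -0.54 to 0.53 for Gadd45b, -0.58 to 0.12 for Ptgs2, 0.048 to 0.93 for Ier3 and 0.067 to 0.29 for Tnfaip2. Dim signals limit PTGS1, HPGD and PTGS2 in PC9. The causes were not tested.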
